A study of Homo sapiens with 8 samples.

Results

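The library labelled DU145 input holds total RNA of DU145 cells, a line from a metastasis of a prostate carcinoma, and was compared gene by gene with the input libraries of the other 3 cell lines of the series. The series measured RNA bound by ribosomal protein S6 (RPS6) by immunoprecipitation and sequencing (RIP), with the matching input RNA, in 4 human cancer lines that were neither treated nor genetically altered for these libraries as far as the labels say. The 8 libraries were 1 input and 1 RIP library from each line: DU145, grown in RPMI medium, HCT116, a colon cancer line grown in McCoy's medium, SW1990, a pancreatic cancer line grown in DMEM, and a liver cancer line that the titles and the study's text call Hep3B, also grown in DMEM. Another label of the liver libraries gives the line as Huh7, and it is called Hep3B here. Medium and line cannot be told apart. The genes considered were those with at least 1 fragment per kilobase and per 1000000 fragments (FPKM, a level corrected for gene length and sequencing depth) in any of the 4 inputs, which held for 20367 of the 57756 genes listed. Of these, 16696 also had at least 50 estimated counts in the highest input and were compared.

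Prostate glands are built of luminal cells, which depend on androgens and secrete prostate-specific antigen, and of basal cells, which anchor to the basement membrane through laminin and integrins. DU145 is a standard model of androgen-independent prostate cancer and is known for the lack of prostate-specific antigen. Its invasive behaviour in culture has been tied to the EGF receptor, urokinase and mesenchymal genes. The comparison asks which genes set the DU145 input apart from inputs of liver, colon and pancreatic cancer cells. The RIP library of the line served as another look at each gene, from a different RNA fraction of the same line and not as a replicate.

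The DU145 input held 54209591 fragments and the other inputs between 35796276 and 45572116. At this depth, the Wilson 95% interval of a count of 0 in the DU145 input reaches up to 0.0709 fragments per 1000000, a limit that covers counting error only. DU145 and SW1990 lie in one deposited table and Hep3B and HCT116 in another, and the tables were normalised separately. The median level of protein-coding genes was 3.71 on the log2(FPKM + 1) scale in the DU145 input and 3.56 to 3.65 in the others. Mitochondrial genes took 5.001% of the fragments of the DU145 input and 0.471 to 2.98% of those of the other inputs, and the part of this in the results was not tested. Marker genes did not fully follow the labels elsewhere in the series: the SW1990 input had more of the intestinal transcription factor CDX2 (86.6 FPKM) than the HCT116 input (6.25 FPKM). A gene was called higher or lower against the nearest of the other inputs, whatever their labels, while differences from the mean of the other 3 inputs, such as the medians of gene lists, depend on which lines those are. The 4-fold threshold used throughout is on the log2(FPKM + 1) scale, which understates the change of genes with low levels, while a fold given for a single gene is the plain ratio of FPKM values. Each line had 1 library of each kind, so there is no replicate error, no test was run, and a ranking of 1 library against 3 could not have reached a one-sided p below 0.25.

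Prostate genes were checked first. KLK3, which encodes prostate-specific antigen, was listed at 0 in the DU145 input, as were the kallikreins KLK2 and KLK4, the prostatic microseminoprotein gene MSMB, the membrane antigen gene FOLH1 and the acid phosphatase gene ACPP. TMPRSS2, an androgen-responsive protease gene, and HOXB13, a homeobox gene of the prostate and hindgut, were also listed at 0. Of the 20 genes of the prostate luminal list, 7 reached 1 FPKM in the DU145 input, against 7 in Hep3B, 7 in HCT116 and 8 in SW1990. By count of these genes, the DU145 input could therefore not be told from the other inputs. In a bulk library, fewer cells with a gene and less RNA of it per cell cannot be told apart.

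Some members of the list were present at moderate levels. FOXA1, a pioneer factor of prostate, breast and liver, was at 51.8 FPKM, between 30.9 in SW1990 and 65.2 in Hep3B. The metalloreductase genes STEAP1 and STEAP2 were at 9.604 and 9.13 FPKM, close to the 9.16 and 7.76 FPKM of HCT116. FKBP5, an androgen and glucocorticoid target, was at 33.3 FPKM, between SW1990 and HCT116, and SLC45A3 was lowest in DU145 at 3.03 FPKM.

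PMEPA1 was the member that stood apart. This androgen- and TGF-β-induced gene was at 15.6 FPKM in the DU145 input against 0.012 in Hep3B, 0.238 in HCT116 and 0.425 in SW1990. It was 36.7-fold above SW1990, the nearest, and the DU145 RIP library gave 33.9 FPKM against at most 1.68 in the other RIP libraries. The members STEAP4, PCA3, TRPM8 and SPDEF were under 1 FPKM in all 4 inputs. Over the 10 list genes that passed the expression minimum, the median difference between DU145 and the mean of the other inputs was 0.83 on the log2 scale, against 0.02 over all 16696 genes, and in the RIP libraries the list median was 0.28.

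Across all genes, 238 were at least 4-fold above the highest of the other inputs on the log2(FPKM + 1) scale, or 1.43% of the genes compared, and 59 were at least 4-fold below the lowest, or 0.353%. Of the higher genes, 179 were protein coding, 12 were long non-coding RNAs and 47 were other or unmatched entries by RefSeq. Of the lower genes, 55 were protein coding and 1 was a long non-coding RNA. The same rule set apart 573 higher and 252 lower genes for Hep3B, 159 and 82 for HCT116 and 196 and 108 for SW1990. The nearest other input to the 238 genes was HCT116 for 88, Hep3B for 87 and SW1990 for 63. Across genes, which are not independent replicates, the DU145 input correlated with the HCT116 input at Pearson's r = 0.844, with SW1990 at 0.818 and with Hep3B at 0.755, and with its own RIP library at 0.868.

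**Figure D1:**
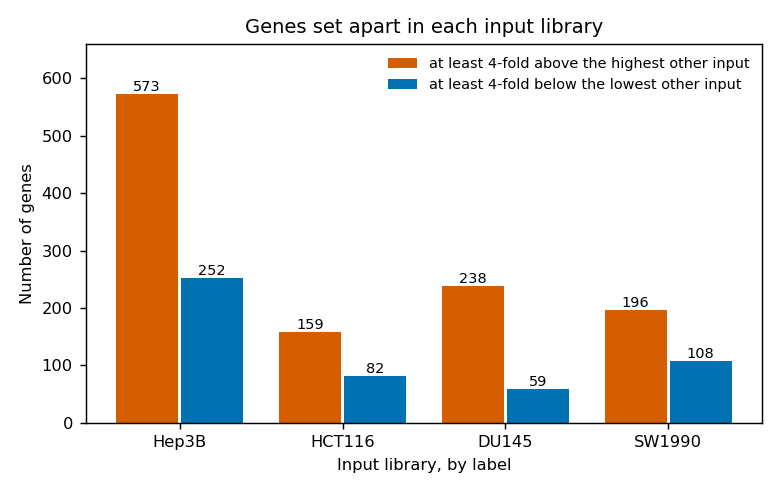
Number of genes (vertical axis, starting at 0) that were at least 4-fold above the highest or below the lowest other input, for the input of each cell line (horizontal axis, 1 library each). DU145 has 238 higher and 59 lower genes, and Hep3B has the most on both sides, 573 and 252.

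The RIP libraries gave the same side for nearly all of these genes. Of the 238 higher genes, 236 were also highest in the DU145 RIP library among the 4 RIP libraries, where 23.7% of all genes compared had DU145 highest. Of the 59 lower genes, 56 were lowest there as well, against 19.8% of all genes. At least 4-fold in RIP were 157 of the higher genes, against 1.4% of all genes, and 41 of the lower genes, against 0.497%. The 5 genes that lay between the others in RIP were HIST1H2AD, SYNJ2BP-COX16 and 3 entries with clone names, and were named after their values were seen. Input and RIP of a line come from the same kind of cells, so this says that the difference was seen in another RNA fraction and not that it would recur in other cultures.

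The genes farthest above the other inputs had little RNA in any of them. BASP1, a membrane-attached signalling protein gene of the brain, was at 97.5 FPKM in the DU145 input and at 0.0273 or less in the others. NNMT, which methylates nicotinamide, was at 105 FPKM against 0.135 at most. LMO3, a LIM-domain transcription cofactor, was at 92.6 FPKM against 0.191 at most. Being highest in the DU145 RIP library too was a condition for naming genes here, so only the size of the RIP values adds to this. The DU145 RIP library had 52.3, 152 and 37.7 FPKM, and the other RIP libraries at most 0.103, 2.297 and 0.

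CD70, the TNF-family ligand of CD27, was at 88.95 FPKM against 0.145 in Hep3B, 0.773 in HCT116 and 0.181 in SW1990. MUC1, a transmembrane mucin, was at 76.6 FPKM against about even low levels in the others, 0.982 in Hep3B, 1.14 in HCT116 and 1.16 in SW1990. LY6K, a lipid-anchored surface protein gene, was at 57.1 FPKM and at most 0.459 elsewhere. ADD2, the β subunit of the membrane-skeleton protein adducin, was at 36.2 FPKM and at most 0.00962 elsewhere.

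UCHL1, a ubiquitin hydrolase abundant in neurons, had the highest level among the named genes at 567 FPKM, and Hep3B with 20.2 FPKM was the only other input in which it was not listed at 0. BCHE, which encodes butyrylcholinesterase, was at 42.6 FPKM in DU145 and at 0.0937 in Hep3B, and was listed at 0 in HCT116 and SW1990. SLC25A21, a mitochondrial carrier of oxodicarboxylates, was at 65.6 FPKM against 1.62 at most. FAM83A was at 97.3 FPKM against 0.443 at most, and the antisense RNA FAM83A-AS1 at its locus was at 6.79 FPKM against 0.0702. Other long non-coding RNAs among the highest were LINC00707, at 28.4 FPKM against 0.101, and HCG11, at 12.3 FPKM against 0.706, which was just under 4-fold in RIP, with a difference of 1.98 on the log2 scale. The histone gene HIST1H3G was at 124 FPKM against 0.537, but histone genes have near-identical copies among which reads can be divided, so its value is uncertain. Of the 15 protein-coding genes that the rule for named genes selects on this side, 13 are described here.

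**Figure D2:**
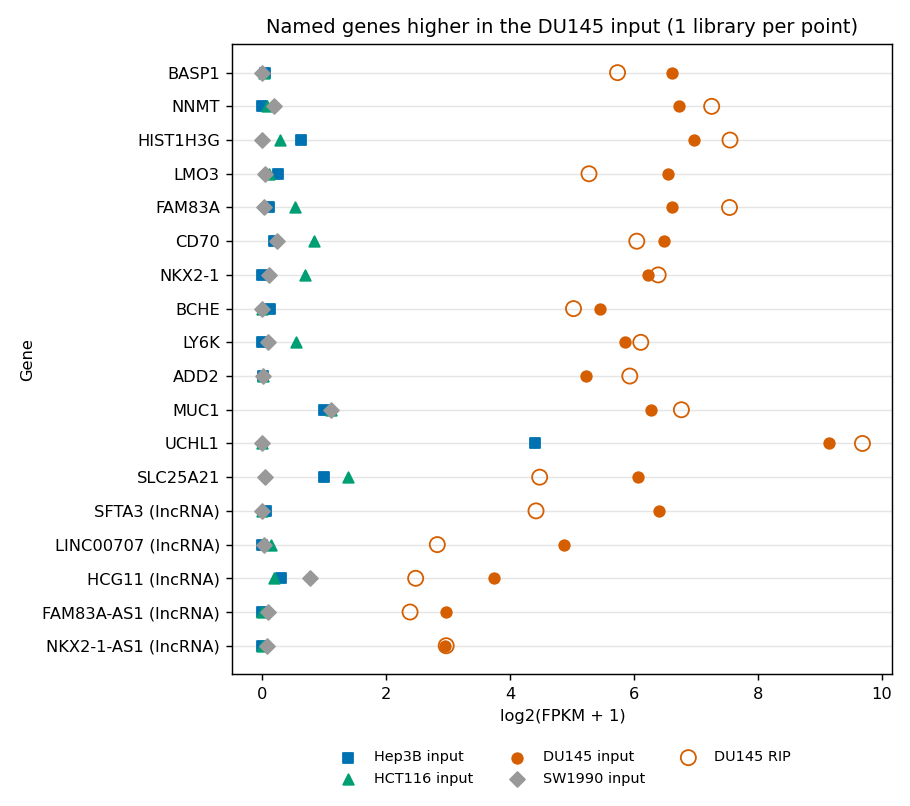
Level on the log2(FPKM + 1) scale (horizontal axis) of the named genes higher in the DU145 input, 13 protein coding and 5 long non-coding, with 1 point for each of the 4 inputs and an open circle for the DU145 RIP library. The DU145 points lie to the right of the other inputs for each gene, and the genes were chosen for this and for the same side in RIP.

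NKX2-1, a homeobox transcription factor of lung and thyroid, was among the highest genes as well. It was at 74 FPKM in the DU145 input against 0 in Hep3B, 0.618 in HCT116 and 0.0796 in SW1990, and at 82.98 FPKM in the DU145 RIP library against at most 1.89 in the other RIP libraries. In the DU145 input it had 132 fragments per 1000000 (Wilson 95% interval 129 to 136, counting error only). SFTA3, its neighbour and a long non-coding gene in RefSeq, was at 83.6 FPKM and at most 0.0444 in the others, and the antisense gene NKX2-1-AS1 was at 6.68 FPKM. The files give NKX2-1 and SFTA3 the same span, chr14:36942411-36992221 in hg19, so fragments in the overlap could be assigned to either.

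Other lung and thyroid genes were looked up after these values were seen. FOXE1, a forkhead factor of the thyroid, was at 6.14 FPKM against 0.1396 at most, and NAPSA, an aspartic protease of lung and kidney, was at 14.8 FPKM, 5.597-fold above SW1990. The lipid transporter gene ABCA3 of alveolar cells was highest in DU145 at 8.46 FPKM against 2.67, which did not reach 4-fold. The defining products of these organs were absent or nearly so: the surfactant genes SFTPA1 and SFTPC were at 0.00671 and 0 FPKM, the club cell gene SCGB1A1 at 0, and the thyroid gene TG at 0.315. PAX8 was at 0.206 FPKM, below the 2.74 and 4.66 FPKM of SW1990 and HCT116. Of a list of 21 lung and thyroid genes, 7 reached 1 FPKM in the DU145 input against 4 or 5 in the others. The list was chosen after the values of NKX2-1 and SFTA3 were seen, so this count is no separate support. What these genes say of the label of the library was not tested.

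Because NKX2-1 and SFTA3 lie side by side and were both near 0 in the other inputs, the bases before their RefSeq starts are shown, with those of GDF15 and IFITM3, the lower genes described further on. Capitals mark CG dinucleotides. The positions are chr14:36520233-36520482 and chr14:36519557-36519806 on the minus strand, chr19:18385908-18386157 on the plus strand and chr11:320861-321110 on the minus strand, all in GRCh38.p14 and each 250 bases long.
NKX2-1: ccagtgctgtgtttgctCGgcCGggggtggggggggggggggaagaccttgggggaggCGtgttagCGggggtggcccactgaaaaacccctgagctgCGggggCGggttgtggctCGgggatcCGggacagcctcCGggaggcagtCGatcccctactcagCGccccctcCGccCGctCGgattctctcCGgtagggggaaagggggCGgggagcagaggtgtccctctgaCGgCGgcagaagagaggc
SFTA3: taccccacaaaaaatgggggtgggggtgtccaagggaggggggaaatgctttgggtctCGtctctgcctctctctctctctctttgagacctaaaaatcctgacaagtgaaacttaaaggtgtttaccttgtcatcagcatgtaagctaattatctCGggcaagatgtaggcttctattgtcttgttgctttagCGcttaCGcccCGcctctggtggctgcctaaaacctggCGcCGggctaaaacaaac
GDF15: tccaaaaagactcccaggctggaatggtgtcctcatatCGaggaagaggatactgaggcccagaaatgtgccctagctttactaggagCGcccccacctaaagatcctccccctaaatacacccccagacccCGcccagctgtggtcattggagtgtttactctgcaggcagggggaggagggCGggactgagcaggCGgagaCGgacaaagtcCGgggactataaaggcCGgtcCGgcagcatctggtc
IFITM3: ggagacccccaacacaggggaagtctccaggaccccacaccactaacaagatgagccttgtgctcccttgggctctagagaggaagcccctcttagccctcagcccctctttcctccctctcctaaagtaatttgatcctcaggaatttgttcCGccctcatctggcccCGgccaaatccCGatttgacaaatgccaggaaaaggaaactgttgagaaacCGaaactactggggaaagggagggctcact
The NKX2-1 stretch held 18 CG dinucleotides at 70.8% G and C, and the SFTA3 stretch 7 at 49.6%. GDF15 had 9 and IFITM3 had 4. The letters TATAAA, searched on both strands, occurred in the GDF15 stretch and in none of the other 3. They also occurred in the stretch before MUC1, a higher gene whose bases are not shown. Among the 127 higher genes with a promoter in the table, 67.7% had a CpG-rich stretch (at least 50% G and C and an observed over expected CG ratio of at least 0.6), and among 44 lower genes 50% did. The share was 75.7% over the 11317 genes compared that had a promoter, and 44.9% over all 27305 promoters of the table. TATAAA occurred in 8.66% of the higher, 11.4% of the lower and 5.67% of all genes compared, and in 11.1% of all promoters.

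The genes on either side of NKX2-1 were then looked at, after its values were seen. Ordered along the genome, 19 protein-coding entries in a row on chromosome 14, from SPTSSA to PAX9, had their highest input level in DU145, between positions 34393436 and 37643016 of hg19. This was the longest such run for DU145. The next longest runs for DU145 lay on the same chromosome, 16 entries from LRR1 to SAV1 and 11 from G2E3 to AKAP6. The run ended at EGLN3, which was lowest in DU145 with a difference of -0.78 from the nearest input on the log2 scale, and at MIPOL1, which with the next genes FOXA1 and TTC6 lay between the other inputs. The longest runs with another input highest were 14 for Hep3B, on chromosome 19, 10 for HCT116 and 11 for SW1990. The longest runs with an input lowest were 17 for Hep3B, on chromosome 10, 15 for HCT116, 8 for DU145 and 6 for SW1990. DU145 was highest for 25.9% of all genes compared. Genes that share a span in the files have no known order within it, and KIAA0391 has 2 entries in the run.

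Most of these genes are expressed in all 4 lines. The proteasome subunit gene PSMA6 was at 361 FPKM in DU145 against 162 in Hep3B, 146 in HCT116 and 188 in SW1990. CFL2, a cofilin of muscle, was at 252 FPKM against 90.4 in Hep3B, 75.99 in HCT116 and 105 in SW1990. NFKBIA, the inhibitor of NF-κB, was at 75.8 FPKM against 41.9 in Hep3B, 19.6 in HCT116 and 24.3 in SW1990. The homeobox genes NKX2-8 and PAX9 near the end of the run were at 6.51 and 13.1 FPKM, against at most 4.98 and 3.18. Over the run, the difference from the mean of the other inputs ranged from 0.49 to 5.96 on the log2 scale, all above 0 because the run is made of genes highest in DU145. In RIP, 17 of the 19 were highest in DU145, where 23.7% of all genes compared were. The run was chosen on inputs of the same lines, so this is no separate support for it. Of the 19, only NKX2-1 and SLC25A21 were at least 4-fold above the other inputs.

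**Figure D3:**
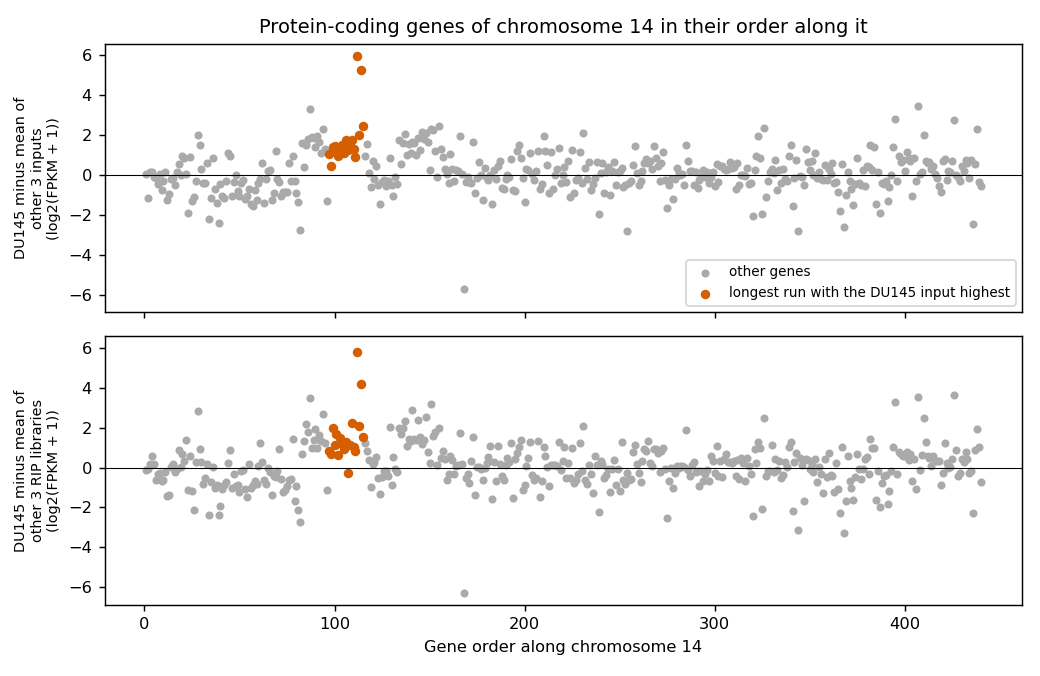
Difference between DU145 and the mean of the other 3 libraries on the log2(FPKM + 1) scale (vertical axis) for the 440 protein-coding genes of chromosome 14 in their order (horizontal axis), in the inputs above and in RIP below. The 19 entries of the run with DU145 highest are coloured, and all lie above 0 in the inputs, with NKX2-1 and SLC25A21 the 2 highest of the run.

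Calls were spread over the chromosomes. Higher genes made up 2.94% of the genes of chromosome 18 (7 of 238), 2.85% on chromosome 10 (19 of 667) and 2.50% on chromosome 9 (17 of 681). Chromosome 9 also had the highest median difference of the nuclear chromosomes described here, 0.37, and chromosome 13 the lowest, -0.27. Copy number was not measured.

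Basal epithelial genes were divided. LAMA3 and LAMB3, which encode chains of a basement membrane laminin of basal cells, were at least 4-fold higher in DU145. LAMA3 was at 25.1 FPKM in the DU145 input against 2.21 in Hep3B, 0.655 in HCT116 and 2.42 in SW1990. LAMB3 was at 40.99 FPKM against 0.534 in Hep3B, 2.74 in HCT116 and 2.57 in SW1990. They were 10.4- and 14.9-fold above the nearest input, and the DU145 RIP library held 110.0 and 199.7 FPKM against at most 10.4 and 17.2.

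The classical basal keratins were not part of this pattern. KRT5 and KRT14 were listed at 0 in the DU145 input and TP63, the basal lineage factor, was at 0.129 FPKM. The genes of the laminin-binding integrin of basal cells, ITGA6 and ITGB4, were at 52.97 and 4.84 FPKM, of which ITGA6 was slightly above and ITGB4 within the range of the other inputs. CAV1 and CAV2, which coat caveolae, were at 224 and 237 FPKM, near HCT116 with 240.2 and 187 and above the 18.5 and 36.1 FPKM of the nearer of the remaining inputs. In all, 3 of 14 basal genes were at least 4-fold higher and none lower, where 1.43% and 0.353% of all genes were, and the list median was 1.61. Of the 20 genes of the basal list, 12 reached 1 FPKM in the DU145 input, against 10 in Hep3B, 10 in HCT116 and 13 in SW1990. By that count, DU145 lay within the range of the other inputs. Some other laminin genes were looked at after these values were seen: LAMA1 was also at least 4-fold higher, at 5.39 FPKM against 0.043, and LAMA5, LAMB1, LAMB2, LAMC1 and LAMC3 were not.

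Mesenchymal genes were higher in part. AXL, a receptor tyrosine kinase, was at 225 FPKM in DU145 against 0.0612 in Hep3B, 15.7 in HCT116 and 1.44 in SW1990. TWIST2, a basic helix-loop-helix factor of mesoderm, was at 9.62 FPKM and listed at 0 in the other 3 inputs. TGM2, a transglutaminase, was at 61.6 FPKM against 4.596 at most, and CYR61, a matricellular target of YAP, was at 138 FPKM against 26.5. The folds over the nearest input were 14.3 for AXL, 13.4 for TGM2 and 5.196 for CYR61.

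Vimentin and the repressor ZEB1 were highest in DU145 without reaching 4-fold on the log2(FPKM + 1) scale. VIM was at 336 FPKM against 198 in Hep3B, 1.91 in HCT116 and 0.147 in SW1990, so that DU145 and Hep3B were far above both other inputs. ZEB1 was at 7.69 FPKM against 1.67 at most. The N-cadherin gene CDH2 was listed at 0 in DU145 and fibronectin, FN1, was at 3.14 FPKM against 135 in Hep3B. Of 17 genes, 4 were at least 4-fold higher and none lower, where 1.43% and 0.353% of all genes were, and the median was 1.90.

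Epithelial junction and splicing genes had no member at least 4-fold higher, and DU145 was lowest for 11 of 20, where it was lowest for 19.2% of all genes. ESRP1, an epithelial splicing regulator, was the 1 member at least 4-fold lower, at 1.71 FPKM against 10.5 in SW1990, 58.3 in Hep3B and 58.96 in HCT116. Its difference from the nearest input was -2.09 on the log2 scale, and it was under 4-fold on the scale of TMM-normalised counts per 1000000, at -1.99, and in RIP, at -1.06. ST14, which encodes the protease matriptase, fell just short at 2.28 FPKM against 12.03, with a difference of -1.99 on the log2 scale. The keratins of simple epithelium were lowest too: KRT8 was at 95.4 FPKM against 376 in Hep3B, 457 in HCT116 and 531 in SW1990, and KRT18 at 104 FPKM against at least 329.

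DU145 kept substantial RNA of several junction genes. CDH1, which encodes E-cadherin, was at 32.7 FPKM, second to Hep3B with 40.8. EPCAM was lowest in DU145 but still at 67.04 FPKM. RAB25 and GRHL2 were at 0.139 and 0 FPKM, as low as in Hep3B, while HCT116 had 103 and 3.84 FPKM. The list median was -1.38 in the inputs and -1.69 in RIP. A keratin outside this list went the other way: KRT7, of ducts and lung, was at 254 FPKM against 1.96 in Hep3B, 16.2 in HCT116 and 3.17 in SW1990, 15.6-fold above the nearest.

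**Figure D4:**
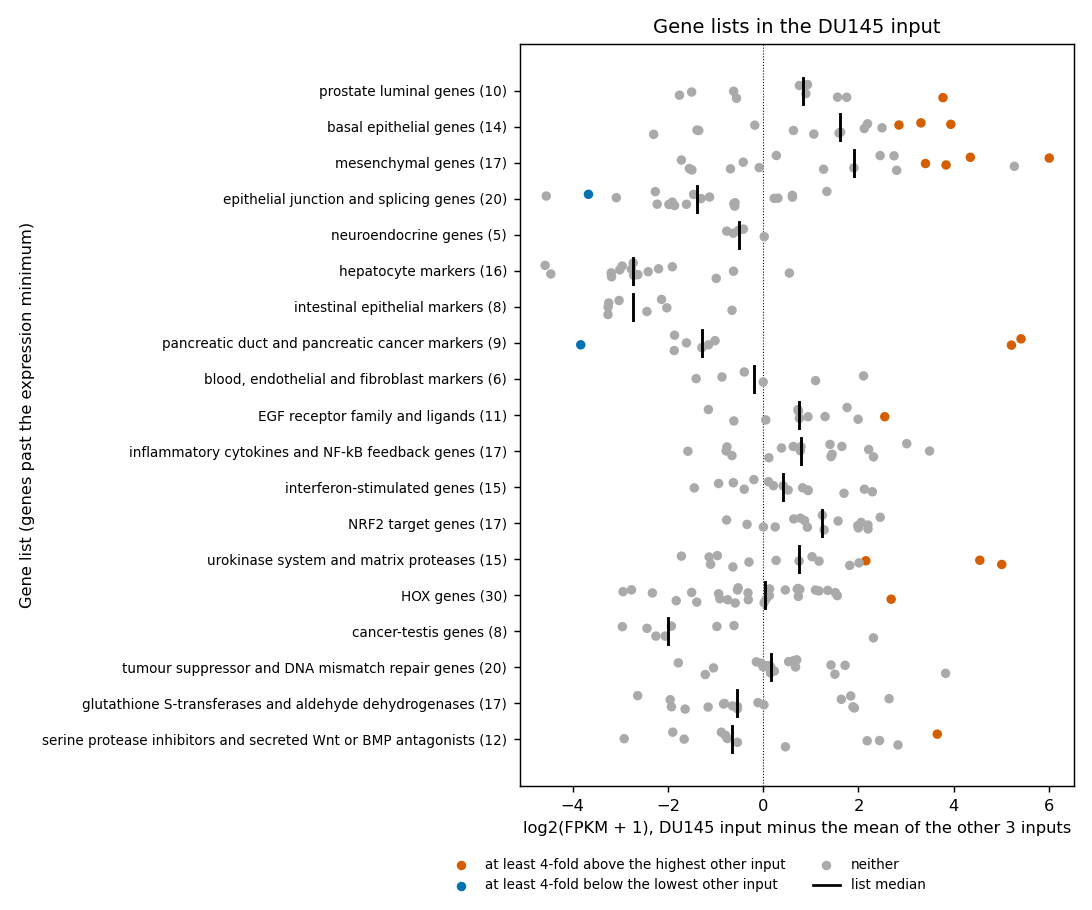
Difference between the DU145 input and the mean of the other 3 inputs on the log2(FPKM + 1) scale (horizontal axis) for the genes of 19 lists (vertical axis, number of genes past the expression minimum in brackets), 1 point a gene, with the list median as a bar. Epithelial junction genes lie mostly below 0 (median -1.38), and basal, mesenchymal and NRF2 target genes mostly above (1.61, 1.90 and 1.24).

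In the EGF receptor family, the member past 4-fold was a ligand. HBEGF, the heparin-binding ligand, was at 18.03 FPKM in DU145 against 1.32 in Hep3B, 2.77 in HCT116 and 2.9 in SW1990, and was 6.22-fold above the nearest input. The receptor gene EGFR was at 39.2 FPKM, close to Hep3B with 44.4 and above HCT116 and SW1990 with 9.64 and 8.04. ERBB2 was highest in DU145 at 25.8 FPKM against 19.7, ERBB3 was lowest at 8.41 against 9.04, and ERBB4 was listed at 0. These differences of ERBB2 and ERBB3 from the nearest input were 0.37 and -0.09 on the log2 scale.

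Of the other ligands, AREG was at 30.01 FPKM against 21.9 at most, and NRG2 at 3.11 FPKM against 0.513. EREG and TGFA were at 73.1 and 26.6 FPKM, within the range of the other inputs. BTC was at 5.13 FPKM and NRG1 at 1.75, above the nearest input by 0.10 and 0.03 on the log2 scale, and EGF and EPGN were under 1 FPKM. Of 11 genes compared, 1 was at least 4-fold higher, where 1.43% of all genes were, and DU145 was highest for 6, where it was highest for 25.9% of all genes. The list median was 0.76.

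In the list of the urokinase system and matrix proteases, PLAU, CTSL and MMP1 were at least 4-fold higher. PLAU, which encodes urokinase, was at 200.1 FPKM in DU145 against 1.06 in Hep3B, 19.1 in HCT116 and 4.87 in SW1990, 10.5-fold above the nearest. Its receptor gene PLAUR was at 28.96 FPKM against 17.7 at most, a smaller difference of 0.68 on the log2 scale. The inhibitor gene SERPINE2 was lowest in DU145, at 10.9 FPKM. CTSL, the lysosomal protease cathepsin L, was at 252 FPKM against 4.95 in Hep3B, 10.04 in HCT116 and 18.3 in SW1990. MMP1, an interstitial collagenase, was at 3.53 FPKM against 0.0384 at most. Its difference of 2.13 on the log2 scale fell under 4-fold after each library was centred on protein-coding genes, at 1.98, and in RIP, at 1.65. Of 15 genes, 3 were thus at least 4-fold higher, where 1.43% of all genes were, and none lower. DU145 was highest for 8 and lowest for 4, where it was highest for 25.9% and lowest for 19.2% of all genes, and the list median was 0.75.

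NRF2 target genes, which defend against oxidants, had DU145 highest for 13 of 17, where it was highest for 25.9% of all genes, but none at least 4-fold. The thioredoxin reductase gene TXNRD1 was at 429 FPKM against 37.8 in Hep3B, 299 in HCT116 and 108 in SW1990. SRXN1, sulfiredoxin, was at 134 FPKM against 9.72 in Hep3B, 64.7 in HCT116 and 47.6 in SW1990. ABCC3, a conjugate exporter, was at 56.1 FPKM against 19.1, and the heme oxygenase gene HMOX1 at 26.7 FPKM against 9.61. NQO1 was at 466 FPKM, scarcely above SW1990 with 431. The list median was 1.24 in the inputs and 0.59 in RIP. Glutathione S-transferase and aldehyde dehydrogenase genes were mixed, with no member past 4-fold in 17 and a median of -0.54. GSTP1, often silenced in prostate cancer, was at 63.8 FPKM, below HCT116 with 794 and SW1990 with 1010. GSTM1 was highest in DU145 at 7.92 FPKM against 1.41.

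Tumour suppressor and mismatch repair genes were all present in DU145, with none of 20 past 4-fold and a median of 0.16. CDKN2A, which encodes p16 and p14ARF, was at 257 FPKM against 93.5 in Hep3B, 58.05 in HCT116 and 0.0669 in SW1990, and its neighbour CDKN2B at 9.53 FPKM against 6.34 at most. RB1 was at 13.7 FPKM, within the range of the other inputs. CDKN1A, the cell cycle inhibitor p21, was at 12.97 FPKM, between Hep3B with 4.72 and SW1990 with 124. STK11, the kinase LKB1, was lowest in DU145 at 18.6 FPKM against at least 42.96, and BAX was lowest at 66.1 against 92.04.

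Other tumour suppressors were close to another input. NF1 and NF2 were highest in DU145 at 50.1 and 53.9 FPKM, against 31.2 and 36.1. CDKN1B, SMAD4, APC, BRCA1 and BRCA2 were at 23.97, 41.1, 16.8, 14.7 and 9.13 FPKM, within the range of the others. Among mismatch repair genes, MSH3 and MSH6 were at 4.67 and 17.03 FPKM, within that range, and PMS2 at 12.7 FPKM was above the highest other input by 0.07 on the log2 scale. These are RNA levels, which say nothing of mutations in the genes.

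The lists of inflammatory cytokine and NF-κB genes and of interferon-stimulated genes had no member past 4-fold. Some genes outside these lists passed it, such as IFITM2 and IFITM3, described below. Of 17 cytokine and NF-κB genes, DU145 was highest for 7, where it was highest for 25.9% of all genes, and the median was 0.79. CXCL2 was at 24.2 FPKM against 6.23, while IL8 at 37.4 FPKM was below Hep3B with 143. Of 15 interferon-stimulated genes, DU145 was highest for 7 as well, beside the same 25.9% of all genes, with a median of 0.42. IFIT1, IFIT2 and IFIT3 were highest in DU145 at 5.63, 3.47 and 5.17 FPKM against at most 1.55, 0.782 and 0.591, and ISG15 was at 28.4 FPKM, far below SW1990 with 165. The Wnt antagonist SFRP1 was at 11.6 FPKM and listed at 0 in the other 3 inputs. It was the only 1 of 12 serine protease inhibitors and secreted Wnt or BMP antagonists past 4-fold. Of all genes, 1.43% were at least 4-fold higher, and the list median was -0.65.

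Of the hepatocyte, intestinal, neuroendocrine and blood, endothelial and fibroblast lists, no member passed 4-fold on either side. A lower call needs the gene in each other input, and 0 of 16 hepatocyte markers reached 1 FPKM in HCT116, so none could be called lower. The medians against the mean of the other inputs were -2.72 for the hepatocyte and -2.73 for the intestinal list. They were -0.51 for the neuroendocrine and -0.20 for the blood, endothelial and fibroblast list. Hepatocyte markers were at 1 FPKM or more for 2 of 16 in DU145 and for 16 of 16 in Hep3B. SERPINA1, α1-antitrypsin, was at 15.8 FPKM in DU145 and 539 in Hep3B, and ALB was at 0.0571 against 5030. Intestinal markers reached 1 FPKM for 1 of 15 in DU145, against 5 in Hep3B, 2 in HCT116 and 7 in SW1990. Pancreatic markers did so for 4 of 15, against 4 in Hep3B, 8 in HCT116 and 9 in SW1990. Neuroendocrine genes did so for 1 of 15, against 4 in Hep3B, 2 in HCT116 and 1 in SW1990. Blood, endothelial and fibroblast markers did so for 3 of 14, where the other inputs had 2 or 3. Among the pancreatic markers were MUC1 and KRT7, both at least 4-fold higher, and SOX9, at least 4-fold lower. The summed level of the pancreatic list was highest in DU145, at 336 FPKM against 52.7 to 172, with KRT7 alone at 254 FPKM. The summed level of the blood, endothelial and fibroblast list was 18.1 FPKM in DU145 and 7.80 to 13.0 in the others, most of it from the lysosomal gene CD68 at 13.8 FPKM.

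HOX genes, which record position along the body axis, were in the middle. Of 30 compared, only HOXC10 was at least 4-fold higher and none was lower, where 1.43% and 0.353% of all genes were. HOXC10 was at 8.58 FPKM against 1.13 in HCT116. In RIP its difference was 1.61 on the log2 scale, under 4-fold. HOXA3 was highest in DU145 at 41.02 FPKM and HOXA7 lowest at 0.513. SW1990 had more of the HOXB genes, for example 109 FPKM of HOXB9 against 9.88 in DU145. The median over the list was 0.04 in the inputs, -0.06 after each library was centred on protein-coding genes and -0.25 in RIP, so the list has no settled direction. Cancer-testis genes of the list were absent or nearly so except for PRAME, at 14.9 FPKM against 13.1 in HCT116, 31 of 32 were under 1 FPKM, and none of the 8 compared passed 4-fold. CT83, a cancer-testis gene outside the list that was looked up after its value was seen, was at 18.03 FPKM and listed at 0 in the other 3 inputs.

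Some other genes in the higher group were put in families after their values were seen. SLFN11, SLFN12 and SLFN13, Schlafen genes that lie together on chromosome 17, were at 11.4, 6.35 and 6.43 FPKM in DU145 and at most 0.0283, 0 and 0.0679 in the others, while SLFN5 was at 1.21, between the others. Of 12 antigen processing genes, PSMB8, TAP2 and ERAP2 were at least 4-fold higher, where 1.43% of all genes were. They were at 8.59, 98.2 and 15.4 FPKM against at most 0.104, 20.7 and 1.404. In RIP, PSMB8 and ERAP2 were past 4-fold, and TAP2 was under it, with a difference of 1.33 on the log2 scale. B2M and PSMB9 were within the range of the other inputs, at 1125 and 4.52 FPKM.

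The genes farthest below the other inputs included a stress cytokine and a calcium-binding protein. GDF15, a TGF-β family cytokine induced by stress, was at 0.0206 FPKM in DU145 from 1 fragment against 85.7 in Hep3B, 81.5 in HCT116 and 108 in SW1990. The DU145 RIP library gave 0.704 FPKM against at least 219. S100A14 was at 0.682 FPKM against 206 in Hep3B, 99.7 in HCT116 and 267 in SW1990, 146-fold below the nearest. The histone genes HIST1H4E and HIST1H3J were at 0 and 0.533 FPKM against at least 115 and 41.1, with the same uncertainty over copies as above. Of 50 HIST1H genes compared, 2 were at least 4-fold higher and 5 lower, where 1.43% and 0.353% of all genes were.

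IFITM3, which blocks virus entry at endosomes, was at 8.11 FPKM against 205 in Hep3B, 409.9 in HCT116 and 198 in SW1990, 24.4-fold below the nearest. Its neighbour IFITM2 was at 3.97 FPKM against at least 21.1, and IFITM1 at 0.3197 against 3.88 did not reach 4-fold on the log2(FPKM + 1) scale, with a difference of -1.89. In RIP, IFITM2 was under 4-fold, with a difference of -1.22, and IFITM1 was past it, at -2.90. SIGIRR, an inhibitory member of the interleukin-1 receptor family that lies near them on chromosome 11, was at 0.5403 FPKM against 21.1 in Hep3B, 25.1 in HCT116 and 40.8 in SW1990. The IFITM genes are similar in sequence, so reads may have been divided among them.

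SOX9, a transcription factor of ducts and crypts, was at 1.76 FPKM against 31.98 in Hep3B, 28.9 in HCT116 and 60.6 in SW1990. RNF43, a ubiquitin ligase that removes Wnt receptors, was at 1.38 FPKM against 39.1 in Hep3B, 29.8 in HCT116 and 143 in SW1990. BMP4, a bone morphogenetic protein, was at 0.219 FPKM against 11.6 in Hep3B, 49.7 in HCT116 and 399 in SW1990. CXXC5, a zinc finger protein of Wnt and BMP signalling, was at 2.68 FPKM against at least 35.2. The folds below the nearest input were 16.4 for SOX9, 21.6 for RNF43, 53.1 for BMP4 and 13.1 for CXXC5.

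The others named by the same rule had various functions. LGALS3BP, a secreted galectin-binding glycoprotein, was at 1.58 FPKM against 124 in Hep3B, 54.5 in HCT116 and 25.5 in SW1990. ADAP1, an ARF GTPase-activating protein, was at 0.394 FPKM against at least 13.01. AMDHD2, an amino sugar deacetylase, was at 0.0646 FPKM against 12.1, and the co-chaperone gene DNAJC22 at 0.162 against 12.3. CHAMP1, a kinetochore protein gene, was listed at 0 in both DU145 libraries and at 16.5 to 28.8 FPKM in the other inputs. A value of exactly 0 can be a failed estimate: 10 genes were at 0 in the DU145 input with at least 5 FPKM in each other input, and 14 to 41 genes were so in the other inputs. The long non-coding RNA UCA1, first described in bladder cancer, was the only one in the lower group, listed at 0 in DU145 and at 3.19 to 64.4 FPKM in the other inputs. In RIP its difference from the nearest library was -0.64 on the log2 scale, under 4-fold.

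**Figure D5:**
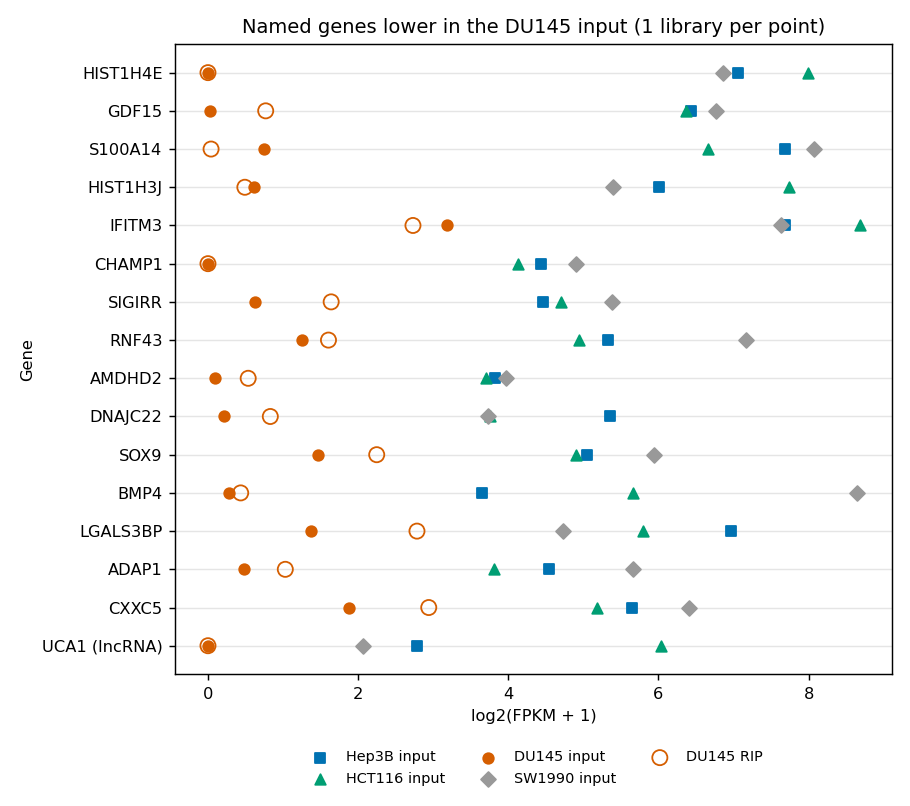
Level on the log2(FPKM + 1) scale (horizontal axis) of the 15 protein-coding genes and 1 long non-coding RNA named as lower in the DU145 input, with 1 point for each of the 4 inputs and an open circle for the DU145 RIP library. The DU145 points lie to the left of the other inputs for each gene, at 8.11 FPKM or less.

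Within the table that holds both DU145 and SW1990, where the values were normalised together, 886 genes were at least 4-fold higher and 798 lower in the DU145 input than in the SW1990 input.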

How the data were processed

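RNA bound by RPS6 (RIP) and input RNA of 4 cell lines were sequenced from stranded total RNA libraries. Per the labels, the submitters' processing notes name CASAVA 1.8, TopHat2 2.0.9 and hg19. The counting tool and annotation release are not given in the sources used here. The authors deposited, in 2 separately normalised tables, FPKM values and estimated counts, of which 78.3 to 91.9% of the values above 0 in a library were whole multiples (within 0.01) of 1 step. Dividing by that step gave fragments. Deposited fold changes, p-values and q-values of RIP against input were not used.

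FPKM values were compared as log2(FPKM + 1). A gene was higher (lower) when the DU145 input was at least 4-fold above the highest (below the lowest) other input, among genes with at least 1 FPKM and 50 estimated counts in an input. The named genes were the 15 protein-coding genes and up to 5 long non-coding RNAs farthest on each side with the same side in RIP, list genes past 4-fold, and the members of the prostate luminal, EGF receptor and tumour suppressor lists. Some of the genes so selected are not reported here. The members and lists were chosen with earlier results of these data known. Names and biotypes came from RefSeq tables (GRCh38.p14), as did promoters. Python 3.11.15, pandas 2.3.3, SciPy 1.17.1, R 4.3.3 and edgeR 4.0.16 (TMM only, on rounded estimated counts) were used. The rule was run on simulated counts with 8-fold changes planted in 200 well-expressed genes and with counting error only. Such a simulation checks the working of the rule and says nothing of the error of the calls.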

Additional observations from a re-analysis of the deposited data

How the results depend on the processing

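Each group holds 1 library, so the counts carry no replicate error. The higher and lower counts, 238 and 59, became 421 and 186 with a pseudocount of 0.1, 914 and 336 at 2-fold, 72 and 21 at 8-fold, 634 and 326 against the mean of the 3 other inputs, and 886 and 798 against SW1990 alone. Without the minimum count there were 424 higher genes, with TMM-scaled log2(CPM + 1) there were 301 higher and 112 lower genes, and after centring on protein-coding genes 216 and 71. Leaving out 1 other input in turn gave 331 to 430 higher and 113 to 190 lower genes. Without Hep3B the counts were 430 and 190, without HCT116 396 and 143, and without SW1990 331 and 113. Of the 238 and 59 genes, TMM scaling kept 206 and 52 and centring on protein-coding genes kept 216 and 59. Of the higher genes, 66.0% were at least 4-fold apart in RIP too, and 94.6% of the 2-fold higher genes were on the same side there. Of the lower genes, 69.5% were at least 4-fold apart in RIP. The median of the prostate luminal list fell from 0.83 to 0.28 in RIP. The median of the HOX list turned from 0.04 to -0.057 after centring and to -0.25 in RIP. The 53 named genes past 4-fold kept their direction under all 7 alternatives run on them, but for several of these the outcome was fixed in advance. Leaving out 1 other input or using a pseudocount of 0.1 can only keep or enlarge the distance from the nearest input. The genes named as farthest on each side had also been chosen for the same side in RIP. Past 4-fold were 52 of the 53 with TMM scaling, 52 after centring and 47 in RIP. No paired analysis was possible because each line has 1 input and 1 RIP library and no test was run. The cause of these shifts was not tested.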
